A study of Mus musculus with 6 samples.

Results

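Nuclei with transcripts of Kcnip1, Necab1, Tenm4, Tll2 and Col26a1 were examined among the fibroblasts of the mouse left ventricle. They were chosen by a rule on UMI counts (unique molecular identifiers, 1 per captured transcript). A nucleus first had to fall in a fibroblast gate, with at least 3 UMIs of Pdgfra, Dcn, Abca8a and Col8a1 together, at most 1 UMI of the endothelial and mural genes Pecam1, Cdh5 and Rgs5, and under 1% of UMIs from the cardiomyocyte genes Ttn, Ryr2 and Myh6. The summed UMIs of the 5 genes then had to be at least 2 and above each of 3 competing sums. The first competing sum (Gfpt2, Has2, Cd248, Adgrd1, Duox1) marks adventitial-type fibroblasts, the second holds Nkain2, Fbn2, Pappa, Fgf10 and Vit, and the third holds the activation genes Postn, Cilp, Thbs4 and Comp. Of 69249 barcodes, 48438 passed the quality filter, 15135 of these fell in the fibroblast gate, and 2918 were members. Members were therefore 19.3% of gated nuclei and 6.02% of all nuclei that passed.

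There were 3 groups of male mice aged 12 weeks, with 2 libraries in each. WT-CD hearts came from wild-type littermates on control diet. R403Q-CD hearts carried 1 copy of the R403Q myosin heavy chain mutation in Myh6, a model of hypertrophic cardiomyopathy, and received the same diet. R403Q-EMPA hearts carried the same mutation and ate food containing empagliflozin (EMPA), which blocks the renal glucose transporter SGLT2, at 0.15 mg per g, or about 15 mg/kg by the labels. These also state a feeding period that this age does not allow, so the time on diet is not given. An amino acid substitution cannot be checked in a table of counts per gene. Nothing in the labels says that the libraries of a group came from separate hearts, so p-values measure only the spread between these libraries.

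Cardiac interstitial fibroblasts lie between the muscle fibres, where they make and turn over collagen and other matrix and release growth factors. Kcnip1 encodes a calcium-binding partner of A-type potassium channels, Necab1 an EF-hand calcium-binding protein, and Tenm4 a teneurin, a cell-surface adhesion protein. Tll2 encodes a metalloprotease of the tolloid family, which cleaves procollagens and antagonists of bone morphogenetic proteins, and Col26a1 encodes the chain of collagen XXVI. Most of these genes are better known from neural tissue than from heart.

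Library totals lay between 31787308 and 45397128 UMIs. The members held 2890506 and 2932885 UMIs in the WT-CD libraries, 2204300 and 1949444 in those of R403Q-CD, and 602532 and 471861 in those of R403Q-EMPA, so that sums in the treated group were the shallowest. Median depth per member nucleus lay between 2529 and 4558 UMIs and was within a few per cent of that of the other gated nuclei in each library. Pairs of libraries shared 9 to 36 barcodes, at most 0.437% of the smaller library, and 1 member barcode was shared between WT-CD replicate 1 and R403Q-EMPA replicate 1. Doublets were predicted for 1.99% of members, and the results below include them. R403Q-EMPA replicate 1 stood apart in another gated subset. It held 240 nuclei in which the Postn sum led, against 28 to 65 in the other libraries, and counts of calls, and the values of several genes that it moved, are also given without it.

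The sums of the 5 genes covered a range in members, and many were near the threshold. A sum of exactly 2 UMIs was found in 648 members (22.2%), and 489 (16.8%) led the next sum by a single UMI. The median sum was 4 UMIs and the highest 35. In 1114 members (38.2%) a single gene of the 5 supplied the sum, in 1209 (41.4%) it came from 2 genes, and in 15 (0.514%) from all 5. Just outside the rule, 558 gated nuclei had 1 UMI of the 5 genes and none of the competing genes, 1179 had at least 2 UMIs but not the highest sum, and 294 of the latter were tied. The rule thus draws a line through a run of low counts. Whether the levels are graded or a separate class was thinly sampled was not tested.

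UMIs of Tll2 were found in 58.7% of members, of Kcnip1 in 49.1%, of Col26a1 in 30.4%, of Necab1 in 25.2% and of Tenm4 in 24.1%. The rule fixes these shares to be high. In nuclei that should lack the genes the shares were far lower, between 0.0834% and 0.50% in 5998 endothelial-type nuclei (median depth 3049.5 UMIs) and between 0.376% and 0.626% in 3992 cardiomyocyte-type nuclei (median depth 9290 UMIs). In the 12217 gated nuclei that were not members, 13.3% had a UMI of Tll2 and 3.37% one of Kcnip1, above the shares in both of those types. The genes also occurred together within the fibroblast gate when their sum was not used. They are the rule's own genes, so their pairs are given as a description. Of all gated nuclei with a UMI of Kcnip1, 37.6% had one of Tll2, against 19.9% of those without. For Tenm4, 32.6% of positive nuclei had a UMI of Kcnip1 against 10.7%, and for Necab1 27.3% against 10.7%. Every ordered pair of the 5 genes showed this direction in 6 of 6 libraries. These pairs share depth, since a nucleus with more UMIs has more of every gene.

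Fibroblast markers that the rule did not use (Col1a1, Col3a1, Tcf21, Gsn, Dpt and 9 others) summed to 13977 to 15418 CPM (UMIs of a gene scaled to a common total) in members and to 14028 to 16037 CPM in the other gated nuclei. Both kinds of nuclei passed the same fibroblast gate, so similar sums follow in part from it and do not check the label of fibroblast. Nothing measured here locates a nucleus in the tissue, and "interstitial" is carried over as a name. Markers of adventitial fibroblasts outside the rule (Pi16, Dpp4, Ly6a, Sema3c, Ackr3, Cd34) summed to 449 to 763 CPM in members and 939 to 1423 CPM in the others, and every library was lower in members. The rule kept nuclei led by the adventitial-type sum out of the members and left them among the others, so this difference follows in part from the rule. Epicardial markers (Wt1, Msln, Upk3b, Upk1b, Krt19, Muc16) summed to 0.682 to 10.4 CPM in members against 60.9 to 177 CPM. Endothelial markers lay between 104 and 158 CPM, cardiomyocyte markers between 1665 and 2700 CPM, close to the 1571 to 2705 CPM of the other gated nuclei, and Schwann cell markers between 131 and 231 CPM with the defining gene Sox10 at 0 in 6 of 6 libraries. The gate caps genes of the endothelial, pericyte and cardiomyocyte lists (Pecam1, Cdh5, Rgs5, Ttn and Myh6 among them), so the sums of those lists are partly fixed by the rule.

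Beyond the 5 genes, few transcripts stood out in these nuclei. Levels in members and in the other gated nuclei are given as a description, since the rule divided the same nuclei. Of 7685 genes at or above 20 CPM, 9 (0.117%) were at least 2-fold higher in members in 6 of 6 libraries, and 5 of these were the rule's own genes. The other 4 were Fap, Syn2, Gm4956 and Blnk. The number at least 2-fold lower was 64 (0.833%), of which 9 were genes of the rule.

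Fap, the serine protease called fibroblast activation protein, stood first. Its level in members was 710 and 650 CPM in WT-CD, 791 and 696 CPM in R403Q-CD, and 564 and 701 CPM in R403Q-EMPA, with a mean of 685 CPM against 259 CPM in the other gated nuclei. UMIs of Fap were found in 74.2% of members and 40.8% of the others. The log2 ratio lay between 1.30 and 1.59 over the libraries, so the excess was of similar size in all groups. Next came Syn2, which encodes a synapsin of synaptic vesicles, with a mean of 71.7 against 25.3 CPM, and Blnk, an adaptor of B cell receptor signalling, with 176 against 70.4 CPM. Genes of cell-surface and signalling proteins followed. Hs6st2 (a heparan sulfate sulfotransferase) had 43.4 against 16.6 CPM, Lrrtm3 (a synaptic leucine-rich repeat protein) 128 against 57.0 CPM, and Dchs2 (a large cadherin) 126 against 56.4 CPM. Rgs7, a regulator of G protein signalling, had 205 against 93.7 CPM, Gna14, a G protein alpha subunit, 105 against 43.6 CPM, and Gria3, a glutamate receptor subunit, 371 against 219 CPM. Cacna1d, a pore subunit of L-type calcium channels, had 195 against 107 CPM. Hsd11b1, which regenerates active glucocorticoid inside cells, had 470 against 260 CPM. Of non-coding transcripts and unnamed genes, Morrbid had 954 against 530 CPM, Gm4956 479 against 204 CPM, D630003M21Rik 430 against 255 CPM and 2310043O21Rik 289 against 142 CPM.

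Split by the other sums, these 15 genes did not share a single pattern. Fap was at 192 CPM where the Has2 and Cd248 sum led, at 234 CPM where the Fbn2 sum led and at 230 CPM where the Postn sum led. Gria3 was nearly as high where the Fbn2 sum led (304 CPM) as in members (371 CPM), and Blnk was lowest where the Postn sum led (11.2 CPM). Nuclei in which no sum led were the nearest to members for 9 of the 15 genes, among them Fap at 344 CPM.

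**Figure D1:**
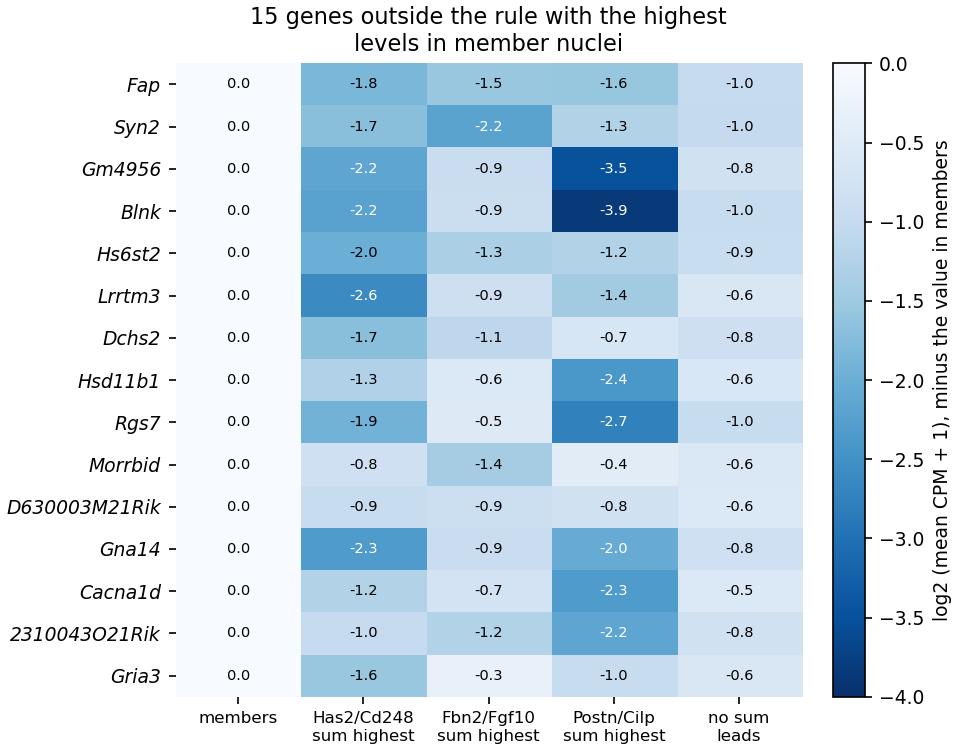
Mean level over 6 libraries of the 15 named genes (rows) in members and in 4 other sets of gated nuclei (columns), as log2 of mean CPM plus 1, minus the value in members; darker blue is lower and members are 0 by construction. Gene by gene, values are at or below 0, with Gria3 and Rgs7 least reduced where the Fbn2 and Fgf10 sum leads and Blnk and Gm4956 most reduced where the Postn and Cilp sum leads.

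The genes lowest in members were near absent there. Pcdh15, a protocadherin, had a mean of 0.638 CPM in members against 29.9 CPM, Cadm2, a cell adhesion molecule, 0.683 against 33.9 CPM, and Grip1, a scaffold protein, 1.83 against 37.6 CPM. Muc16, a mucin of mesothelial surfaces, had 1.12 against 51.6 CPM, Slc35f1 0.923 against 23.6 CPM, Tmem100 1.49 against 23.6 CPM and the neural adhesion molecule Ncam1 2.21 against 22.5 CPM. Gpm6a had 2.69 against 39.1 CPM and Lin7a 4.86 against 37.8 CPM. Sema3c, a secreted semaphorin, was detected in every library of members but at 19.7 against 116 CPM. Several of these genes belonged to single subsets, with Slc35f1 and Cadm2 at 81.8 and 102 CPM where the Fbn2 sum led.

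Members differed among themselves along Kcnip1 and Tll2. A UMI of Kcnip1 without Tll2 was found in 797 members, Tll2 without Kcnip1 in 1076, both in 637 and neither in 408. This split, and the genes named for it, were chosen after seeing the values. Notch3, a receptor best known in mural cells, was at 152 CPM with Kcnip1 alone and 52.9 CPM with Tll2 alone, and its log2 ratio lay between 1.21 and 2.02 in 6 of 6 libraries. Lrrtm3 had 211 against 82.6 CPM, Cyp7b1, an oxysterol hydroxylase, 72.6 against 29.9 CPM, and Pde4a, a cyclic AMP phosphodiesterase, 139 against 89.2 CPM. In the opposite direction, the atypical chemokine receptors Ackr3 and Ackr4 had 32.9 against 95.9 CPM and 32.2 against 73.6 CPM, Myrip 42.2 against 97.1 CPM, Wnt9a 13.9 against 26.6 CPM, and Sgcd, a sarcoglycan, 2040 against 2924 CPM. Nuclei with Tll2 alone were deeper in every library than those with Kcnip1 alone.

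Members were scarcer among the gated nuclei of treated hearts. Their share was 23.1% (95% Wilson interval 21.8 to 24.4) and 24.6% (23.0 to 26.3) in WT-CD, 21.6% and 20.1% in R403Q-CD (intervals from 18.5 to 23.2), and 8.71% (7.45 to 10.2) and 8.86% (7.68 to 10.2) in R403Q-EMPA. The intervals cover counting error only. Group means were 23.8% ± 1.10, 20.9% ± 1.03 and 8.79% ± 0.102 (SD, n = 2), and no groups overlapped. R403Q-EMPA lay 12.1 points below R403Q-CD, at 0.421 of its share, and 15.0 points below WT-CD, at 0.369 of its share, differences more than 10 times the pooled SD of 0.730 and 0.779 points. R403Q-CD lay 2.98 points below WT-CD, at 0.875 of its share. The two-sided exact permutation test gave p = 0.333 for each of the 3 comparisons, the smallest that 2 libraries against 2 allow. Fewer nuclei of this kind and fewer transcripts of the 5 genes per nucleus cannot be told apart, because the rule counts those transcripts.

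The lower share in treated hearts was also present when depth was made equal. After each gated nucleus was thinned to 1000 UMIs, with 4 to 41 shallower nuclei per library left out, members were 11.7% and 10.9% of nuclei in the WT-CD libraries, 8.51% and 8.53% in those of R403Q-CD, and 2.95% and 4.01% in R403Q-EMPA. Of all nuclei that passed the filter, members were 9.37% and 8.43%, 6.99% and 5.68%, and 1.76% and 2.56%. The fibroblast gate itself held 37.5%, 30.3% and 24.6% of nuclei in the 3 groups, with R403Q-CD and R403Q-EMPA overlapping. Leaving out any 1 of the 5 genes from the rule kept R403Q-EMPA lowest, with means of 5.83% to 7.95% against 14.6% to 19.1% in R403Q-CD. When Tll2 was left out, R403Q-CD (15.1%) differed from WT-CD (15.8%) by -0.641 points and the libraries overlapped (exact permutation p = 0.667). They also overlapped without the mitochondrial filter (19.7% and 22.2%, exact permutation p = 0.667).

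**Figure D2:**
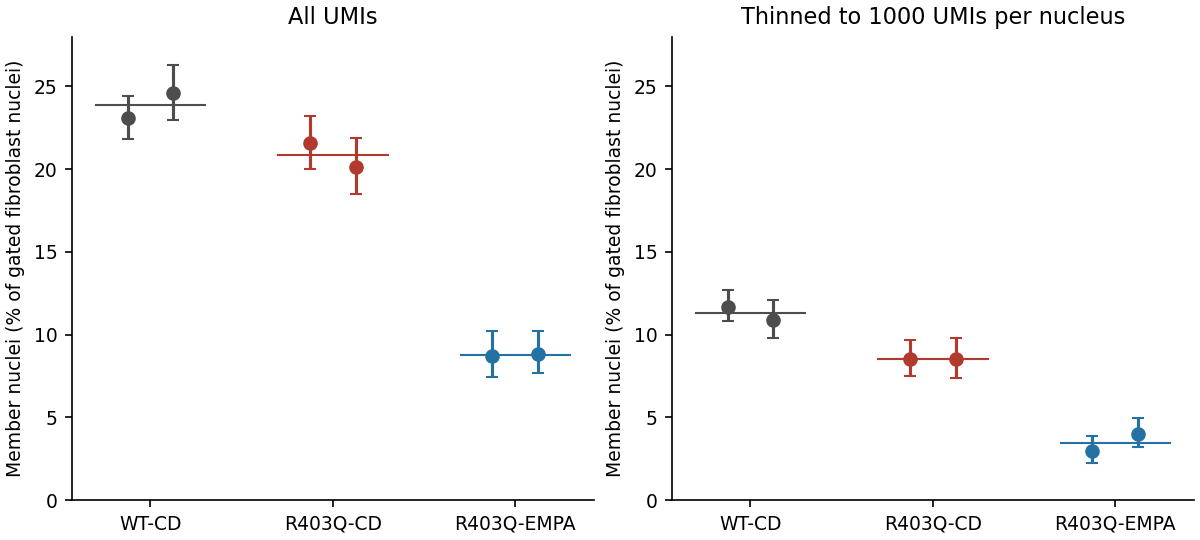
Members as a percentage of gated fibroblast nuclei, 1 point per library with its 95% Wilson interval and a line at the group mean, from all UMIs (left) and after thinning to 1000 UMIs per nucleus (right). Both R403Q-EMPA libraries lie below all other libraries in both panels, at 8.71% and 8.86% on the left.

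A lower share in treated hearts was also seen in 1 of 3 other subsets formed by the same kind of rule. The subset of the Has2 and Cd248 sum was 23.5%, 23.3% and 26.6% of gated nuclei in the 3 groups, taken in the same order. The subset of the Fbn2 sum was 19.8%, 23.5% and 17.4%, and after thinning 11.3%, 12.2% and 8.89%, with both treated libraries below the other 4 in each case. The subset of the Postn sum was 1.46%, 1.49% and 8.59% ± 8.24, and the last value was 2.76% in R403Q-EMPA replicate 2 alone. These shares are parts of the same whole, so a lower share of members raises the others.

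Shares of nuclei with a UMI of a single gene gave the same order for R403Q-EMPA. A UMI of Tll2 was found in 29.2%, 21.7% and 9.48% of gated nuclei in the 3 groups, of Kcnip1 in 13.7%, 14.3% and 6.61%, of Col26a1 in 13.2%, 15.0% and 7.11%, of Tenm4 in 8.62%, 7.38% and 3.49%, and of Necab1 in 10.3%, 8.54% and 6.78%. Members with Kcnip1 alone were 5.69% and 5.34% of gated nuclei in the WT-CD libraries, 6.49% and 6.79% in those of R403Q-CD, and 2.46% and 3.43% in R403Q-EMPA. Members with Tll2 alone were 9.39% and 10.4%, 7.54% and 5.97%, and 2.70% and 2.00%. Those with Tll2 alone were thus lower in R403Q-CD than in WT-CD, and those with Kcnip1 alone were not.

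Summed over the whole fibroblast gate, Kcnip1 was at 162 and 179 CPM in WT-CD, 151 and 152 CPM in R403Q-CD, and 37.7 and 68.9 CPM in R403Q-EMPA (CPM after TMM scaling here and in all group comparisons below). The log2 difference of R403Q-EMPA was -1.52 from R403Q-CD and -1.68 from WT-CD. Tll2 was at 186 and 213 CPM, 141 and 102 CPM, and 43.9 and 50.5 CPM, with log2 differences of -1.37 and -2.07. Both groups of control-diet hearts lay above both treated libraries for these genes. Tenm4 was at 48.2 and 54.2 CPM, 45.2 and 32.6 CPM, and 18.8 and 15.5 CPM, with -1.16 and -1.56. Col26a1 was at 50.5 and 53.0, 53.1 and 53.1, and 23.5 and 31.6 CPM, with -0.95 and -0.91. Necab1 was at 51.3 and 53.1, 36.9 and 42.6, and 28.1 and 36.2 CPM. The UMIs of these 5 genes chose the members, so their levels over the gate restate the shares above and are given with no test.

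The 15 genes found high in members were not chosen by group, but they were chosen in these same nuclei. A lower share of members would itself lower them over the gate, so their levels are no separate support for that share. The test over the gate called 0.167% of 15615 genes lower against R403Q-CD and 0.538% against WT-CD, and among the 15 it called Gna14 alone. Both treated libraries lay below both R403Q-CD libraries for 12 of the 15 (26.3% of all genes) and below both WT-CD libraries for 11 (20.7%). For 9 they lay below all 4, which at most 20.7% of all genes can do, and the 6 exceptions were 2310043O21Rik, Blnk, D630003M21Rik, Dchs2, Gria3 and Rgs7. The level of Gna14 over the gate was 84.8 and 91.3 CPM in WT-CD, 71.2 and 52.6 CPM in R403Q-CD, and 19.0 and 24.8 CPM in R403Q-EMPA. Its log2 difference was -1.50 from R403Q-CD (edgeR adjusted p = 0.0306) and -2.01 from WT-CD (adjusted p = 0.00680). The call of Gna14 against R403Q-CD was lost without R403Q-CD replicate 1 (-1.27), R403Q-CD replicate 2 (-1.70) or R403Q-EMPA replicate 1 (-1.31), and that against WT-CD was lost without R403Q-EMPA replicate 1 (-1.83). Fap was at 371 and 369, 415 and 364, and 233 and 275 CPM, with a log2 difference of -0.62 from R403Q-CD (edgeR adjusted p = 0.132) and -0.54 from WT-CD (adjusted p = 0.138). Hsd11b1 was at 329 and 362, 325 and 355, and 172 and 249 CPM, with -0.69 (adjusted p = 0.164) and -0.71 (adjusted p = 0.122). Fap and Hsd11b1 are thus among those 9 genes but were not called by edgeR, and 2310043O21Rik had a log2 difference of 0.08 from WT-CD.

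**Figure D3:**
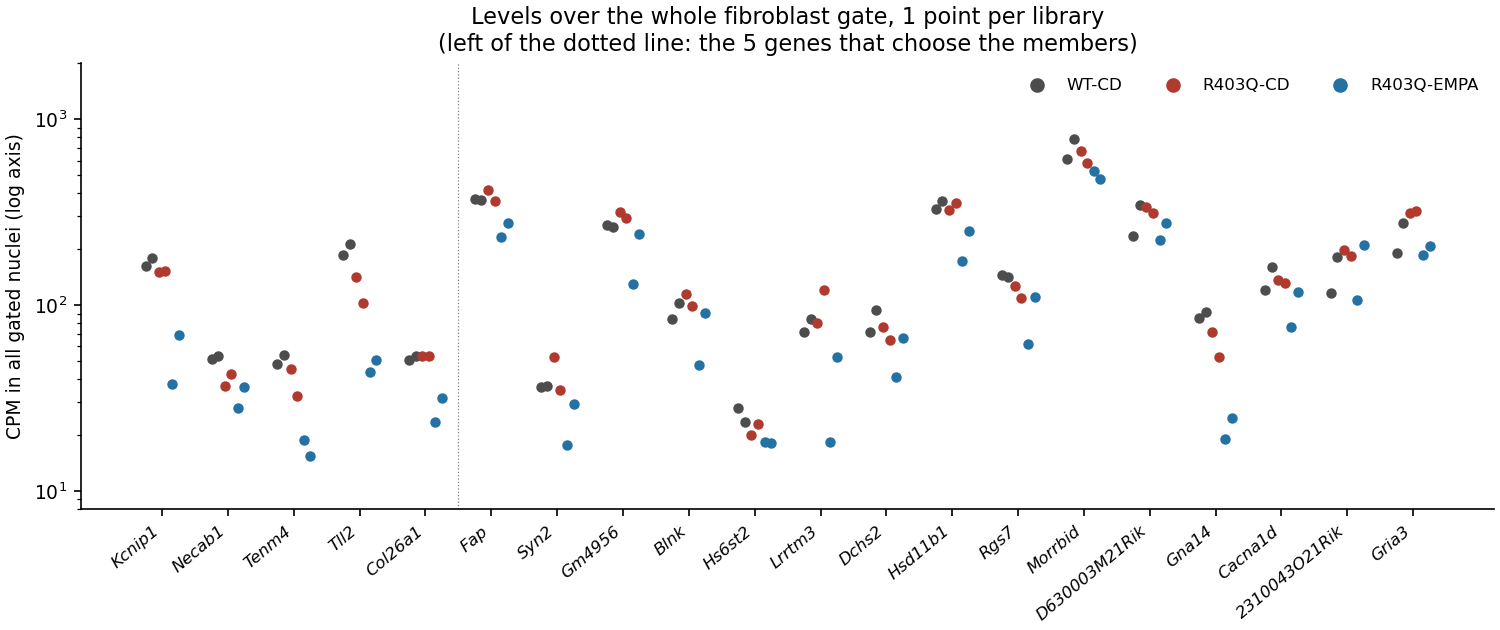
Level of the 5 rule genes (left of the dotted line) and of the 15 genes found high in members, summed over all gated nuclei, in CPM on a log axis with 1 point per library coloured by group. Both R403Q-EMPA points lie below the other 4 points for the 5 rule genes and 9 of the 15, Gna14 among them at 19.0 and 24.8 CPM. At most 20.7% of all genes can lie so.

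The first comparison within members asked what the mutation changed on control diet. No gene of 11979 tested was called in R403Q-CD against WT-CD by edgeR's quasi-likelihood test (0% higher and 0% lower at an adjusted p under 0.05), while 405 genes had an unadjusted p under 0.05. DESeq2 called 0 as well, with 119 at an unadjusted p under 0.05. The 2 groups did not overlap in 14.8% of genes in the higher direction and 15.1% in the lower. The 2 libraries of each group differed beyond counting noise, with a chi-square per degree of freedom of 1.88 to 7.18, a measure that grows with depth. Without WT-CD replicate 2 there were 186 calls, without WT-CD replicate 1 33, and without either R403Q-EMPA library 2.

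The genes with the smallest p-values in this comparison are given as values. Col4a6, a chain of basement membrane collagen, was at 37.5 and 40.4 CPM in WT-CD, 84.0 and 85.9 CPM in R403Q-CD, and 40.7 and 48.9 CPM in R403Q-EMPA, a log2 difference of 1.10 (SE 0.180, edgeR adjusted p = 0.137). Igf1, insulin-like growth factor, was at 87.7 and 97.7, 206 and 161, and 159 and 234 CPM, with 0.98. Both control-diet mutant libraries lay above both wild-type libraries for these genes. Other differences were 1.84 for Fetub, 1.24 for the deubiquitinase Otud7a, 1.60 for the prostaglandin D synthase Ptgds, 1.88 for Enpp6, 1.53 for Gm46323 and 1.10 for Sntg1. Nnat had -2.66 and Car3 -4.08, but these rested on single nuclei. One nucleus held 37 of the 38 UMIs of Nnat in WT-CD replicate 1 and one held 81 of 92 in replicate 2. The 36 and 64 UMIs of Car3, an enzyme of adipocytes and muscle, came from 1 and 2 nuclei, and R403Q-CD libraries had none. All 13 mitochondrially encoded genes were lower in each R403Q-CD library than in either WT-CD library, with a median log2 difference of -0.48 against -0.01 for all genes, and none was called. The members' median share of mitochondrial UMIs was 2.61% and 2.09% in WT-CD and 1.62% and 1.70% in R403Q-CD, and its part in these differences was not tested.

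Treatment was compared with control diet in mutant hearts next. In R403Q-EMPA against R403Q-CD, 33 genes rose (0.275%) and 18 fell (0.150%). Libraries of the 2 groups did not overlap in 21.1% of genes in the higher direction and 22.0% in the lower. The genes that rose were led by chaperones, proteins that fold other proteins. Of the 16 cytosolic heat-shock chaperones and co-factors listed, 8 rose and none fell, with a median log2 difference of 1.33, and 13 did not overlap in the higher direction. Of 19 endoplasmic reticulum (ER) chaperones and stress factors tested, 9 rose and none fell, with a median of 1.39, and 17 did not overlap. The median over all genes tested was 0.00. Without R403Q-EMPA replicate 1 there were 10 calls, 9 of them among the 51, and without R403Q-CD replicate 1 or replicate 2 there were 13 and 8. Without WT-CD replicate 1 or replicate 2 there were 282 and 280, and without R403Q-EMPA replicate 2 there were 78.

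Hsph1, a nucleotide exchange factor of the HSP70 machinery, was at 38.2 and 31.5 CPM in WT-CD, 46.9 and 45.0 CPM in R403Q-CD, and 190 and 274 CPM in R403Q-EMPA. It rose by 2.30 on the log2 scale (SE 0.210, edgeR adjusted p = 1.74e-04). Its UMIs were spread over nuclei, with 117 UMIs in 74 of 145 members of R403Q-EMPA replicate 1, at most 4 in any nucleus, and 129 in 78 of 173 of replicate 2. Hspa4l, a relative of HSP110, was at 20.8 and 26.8, 33.9 and 24.3, and 120 and 181 CPM, and rose by 2.31 (SE 0.254, edgeR adjusted p = 7.05e-04). Both treated libraries were above all 4 others for these genes, and neither call was lost when 1 library was left out, in fits where the lone library of a group is assumed to vary like the other groups. Hspa1b, an inducible HSP70, rose by 3.01 (edgeR adjusted p = 0.0425) from 1 and 2 UMIs in R403Q-CD to 10 and 5 UMIs, and its reads may be shared with the near-identical Hspa1a. The small heat-shock protein Hspb1 rose by 2.25, the HSP90 chaperones Hsp90aa1 and Hsp90ab1 by 1.42 and 1.11, Hspa8 by 1.29 and Dnaja1 by 1.37. The call of Hspa1b was lost in 6 of 12 alternative settings and that of Hspb1 in 4 of 14. Such counts are not given here for Hsp90aa1, Hsp90ab1, Hspa8 and Dnaja1.

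In the ER group, Hsp90b1, which encodes GRP94, was at 218 and 146 CPM in WT-CD, 112 and 149 CPM in R403Q-CD, and 431 and 480 CPM in R403Q-EMPA. It rose by 1.80 (SE 0.207, edgeR adjusted p = 8.98e-04). Hspa5, which encodes BiP, the sensor-binding chaperone of the unfolded protein response, was at 181 and 85.5, 72.8 and 99.4, and 363 and 259 CPM, and rose by 1.85 (SE 0.292, edgeR adjusted p = 0.0111). Treated libraries were again above all others. The call of Hspa5 was lost without R403Q-EMPA replicate 1 (log2 fold change 1.58) or R403Q-CD replicate 1 (1.64), and that of Hsp90b1 was not lost without any single library. The disulfide isomerases Pdia4, Pdia6 and Pdia3 rose by 1.79, 1.55 and 1.42, Hyou1 by 1.77, Manf by 1.73, calreticulin (Calr) by 1.39 and Dnajc3 by 1.37. The calls of Pdia4, Pdia6, Pdia3 and Hyou1 were lost in 6, 5, 4 and 7 of 14 alternative settings, in which Hyou1 was at its lowest, 1.18, with a sum of at least 3. Such counts are not given here for Manf, Calr and Dnajc3. Xbp1, Atf4, Ddit3 and other members of the list were not called.

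**Figure D4:**
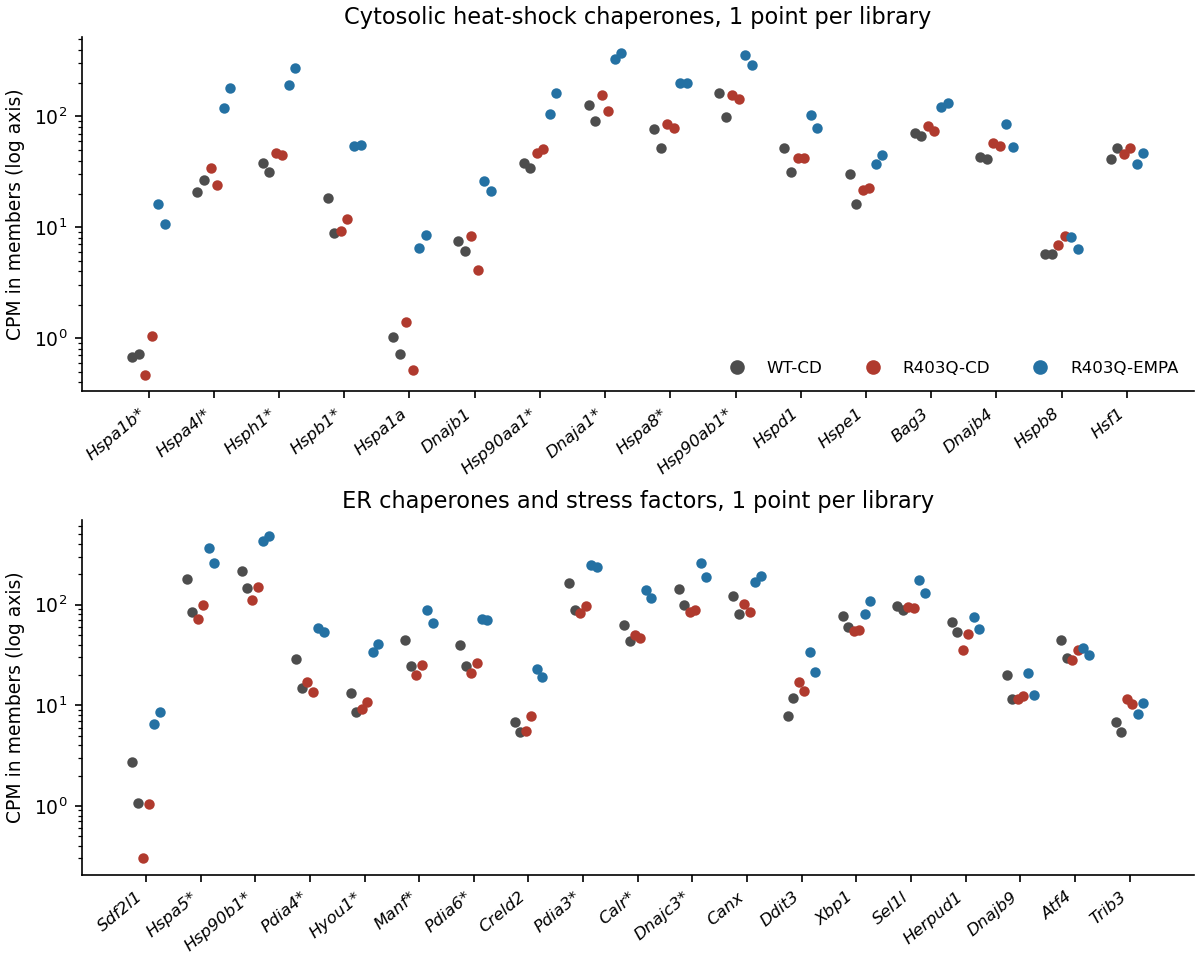
CPM in members (log axis), 1 point per library coloured by group, for the 16 cytosolic heat-shock genes (top) and 19 ER genes (bottom), ordered by log2 fold change; an asterisk marks genes called in R403Q-EMPA against R403Q-CD, and a value of 0 is drawn at 0.3 CPM. In most genes both treated libraries sit above the other 4, as for Hsph1 at 190 and 274 CPM.

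The promoters of ER chaperones carry a known sequence, the ER stress response element, and it is shown here because 9 of these genes moved together. Promoter sequences were taken from RefSeq (mouse build GRCm38.p6, not the build of the counts) and the 250 bases before each gene's start were searched on both strands for CCAAT and CCACG with 9 bases of any kind between them. The element was found for 35 of 27025 genes (0.130%). It was found for 7 of the 17 matched genes of the ER list (41.2%) and for 5 of the 7 matched of the 9 that rose (Calr, Dnajc3, Hsp90b1, Hspa5 and Pdia6). It was found for 0 of 12 matched cytosolic genes. The heat-shock element, GAA, TTC and GAA with 2 bases of any kind between neighbours, was found for 139 genes (0.514%), for 2 of 12 matched cytosolic genes (Hspd1 and Hspe1) and for none of the 5 matched that rose. A match says only that the letters are there. Capitals mark the element in either direction.
Hspa5, chr2:34771840-34772089, plus strand, 1 site 65 bases before the start: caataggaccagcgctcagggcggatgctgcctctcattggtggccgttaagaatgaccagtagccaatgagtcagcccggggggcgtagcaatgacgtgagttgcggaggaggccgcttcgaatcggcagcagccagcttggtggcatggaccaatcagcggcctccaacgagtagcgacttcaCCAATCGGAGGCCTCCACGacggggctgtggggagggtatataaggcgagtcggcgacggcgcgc
Hsp90b1, chr10:86705445-86705694, minus strand, 2 sites 212 and 107 bases before the start: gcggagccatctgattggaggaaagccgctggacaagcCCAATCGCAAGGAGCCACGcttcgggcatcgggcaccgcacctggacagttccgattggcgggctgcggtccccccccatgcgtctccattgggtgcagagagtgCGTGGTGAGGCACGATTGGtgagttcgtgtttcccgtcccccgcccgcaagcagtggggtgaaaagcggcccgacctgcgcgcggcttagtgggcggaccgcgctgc
Pdia6, chr12:17266339-17266588, plus strand, 1 site 98 bases before the start: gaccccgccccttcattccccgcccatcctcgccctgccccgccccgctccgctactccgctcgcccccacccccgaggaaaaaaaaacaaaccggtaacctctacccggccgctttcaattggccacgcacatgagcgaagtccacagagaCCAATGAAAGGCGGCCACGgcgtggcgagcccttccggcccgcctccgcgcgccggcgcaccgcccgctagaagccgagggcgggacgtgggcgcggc
Dnajc3, chr14:118937682-118937931, plus strand, 1 site 105 bases before the start: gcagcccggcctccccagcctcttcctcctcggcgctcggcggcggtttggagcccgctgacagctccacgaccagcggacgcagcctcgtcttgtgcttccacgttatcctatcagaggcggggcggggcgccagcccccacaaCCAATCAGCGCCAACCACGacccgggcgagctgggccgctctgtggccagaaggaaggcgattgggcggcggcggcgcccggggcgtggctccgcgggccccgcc

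Chaperones rose in the other gated nuclei too. There the cytosolic list had a median log2 difference of 1.17 and the ER list one of 1.15, against 0.00 for all genes tested in those nuclei. The difference of the 2 changes had a median of 0.08 and 0 calls for the cytosolic list, and 0.16 and 1 call for the ER list, that of Hsp90b1 (1.80 in members and 1.24 in the others, edgeR adjusted p of the difference = 0.0446). Of all genes, 0.185% were called for this difference.

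Among the other genes that rose, several rested on 1 nucleus. Myh11, smooth muscle myosin, was at 2.39 and 3.58 CPM, 0.928 and 0 CPM, and 55.3 and 12.7 CPM, with a log2 fold change of 4.53 (SE 0.667, edgeR adjusted p = 0.00730). All 34 UMIs of R403Q-EMPA replicate 1 and all 6 of replicate 2 lay in 1 nucleus each, and without replicate 1 the log2 fold change was 3.23. Of the 33 UMIs of Fasn, fatty acid synthase, in R403Q-EMPA replicate 1, 30 lay in 1 nucleus (log2 fold change 2.39, edgeR adjusted p = 0.0184; 1.75 and no call with that library left out). In the same library the markers of smooth muscle summed to 158 CPM, against 21.8 to 63.6 CPM elsewhere, those of adipocytes to 71.4 CPM against 2.12 to 18.8 CPM, and those of cycling cells to 94.6 CPM against 0.513 to 4.99 CPM. Myeloid markers in members summed to 190 and 65.1 CPM in WT-CD, 122 and 112 CPM in R403Q-CD, and 34.9 and 31.8 CPM in R403Q-EMPA, and pericyte markers to 660 and 464, 427 and 428, and 412 and 371 CPM. None of the 6 genes of either list was called, and the part of these nuclei in the treated changes was not tested. Knl1 had 15 of its 16 UMIs, Top2a 14 of 18 and Mki67 18 of 23 in a single nucleus. These levels therefore describe a few nuclei of that library.

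Of the 18 genes that fell, Grm8 changed most. Grm8, a metabotropic glutamate receptor, was at 202 and 177 CPM in WT-CD, 169 and 90.6 CPM in R403Q-CD, and 6.50 and 10.6 CPM in R403Q-EMPA. It fell by 3.80 (SE 0.420, edgeR adjusted p = 7.05e-04), with UMIs in 91 and 35 members of the R403Q-CD libraries and in 3 and 4 of the treated ones. Ccbe1, a secreted factor needed for lymphatic growth, was at 453 and 501, 390 and 392, and 125 and 164 CPM, and fell by 1.44 (SE 0.179, edgeR adjusted p = 0.00156). The potassium channel gene Kcnk2 (TREK-1) had means of 365 ± 17.5, 382 ± 29.2 and 161 ± 9.40 CPM (SD over 2 libraries), and fell by 1.24 (SE 0.167, edgeR adjusted p = 0.00356). For these genes the treated libraries were low and the 4 control-diet libraries lay close together, apart from Grm8 in R403Q-CD replicate 2. Without R403Q-EMPA replicate 1 the call of Grm8 held, and those of Ccbe1 (-1.25) and Kcnk2 (-1.18) were lost, the latter also without R403Q-CD replicate 2 (-1.17).

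Of 22 growth factors and guidance cues tested, none rose, the median log2 difference was -0.24, and 10 did not overlap in the lower direction, against 22.0% of all genes. Angpt1, a ligand of the endothelial receptor TIE2, was at 392 and 430 CPM in WT-CD, 453 and 573 CPM in R403Q-CD, and 278 and 261 CPM in R403Q-EMPA, and fell by 0.92 (edgeR adjusted p = 0.0303). The guidance ligand Slit3 was at 1313 and 1974, 2004 and 1740, and 912 and 958 CPM, and fell by 1.00 (edgeR adjusted p = 0.0459). Angpt1 and Slit3 were at their lowest in the treated libraries, and each lost its call when any 1 of the 4 libraries compared was left out, with values from -1.09 to -0.75 for Angpt1 and from -1.11 to -0.90 for Slit3. Serpini1, a neural serpin, and the histone deacetylase gene Hdac9 each fell by 2.03, Plcxd3 by 1.75, Tmem241 by 1.65, Tox, a nuclear HMG-box protein, by 1.37 and the clock output factor Dbp by 1.58. Serpini1 was at -0.17 after thinning, and Hdac9 at -1.12 with predicted doublets removed, both without a call. Of 14 alternative settings, Plcxd3 lost its call in 5, Tmem241 in 6, Tox in 5 and Dbp in 6. The non-coding A830012C17Rik fell by 1.60 (-0.92 and no call without R403Q-EMPA replicate 1) and 4930578G10Rik by 1.46 (call lost in 4 of 14 settings). In the circadian list of 18 tested genes, Dbp was the only call, with a median of -0.34, 11 genes not overlapping in the lower direction and 5 in the higher (22.0% and 21.1% of all genes).

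Few matrix genes were called. None of 8 fibrillar collagens tested was called, with a median log2 difference of 0.47 and 6 not overlapping in the higher direction, where 21.1% of all genes did not. Col1a2 was at 510 and 328 CPM in WT-CD, 391 and 399 CPM in R403Q-CD, and 582 and 527 CPM in R403Q-EMPA, and Col5a2 at 355 and 333, 433 and 401, and 452 and 567 CPM. The treated libraries were highest for both. Of 19 elastic fibre and crosslinking genes, Fbln2 (fibulin 2) rose by 0.87 (SE 0.163, edgeR adjusted p = 0.0309), from 225 and 198 to 424 and 346 CPM, the median was 0.39 and 9 did not overlap in the higher direction. That call was lost without either R403Q-CD library (0.96 and 0.77) or without R403Q-EMPA replicate 1 (0.70). No small leucine-rich proteoglycan of 8 was called (median 0.36, 6 not overlapping in the higher direction), no matricellular or activation gene of 11 (median 0.64), no basement membrane gene of 16 (median -0.04) and no gene of the transforming growth factor beta and bone morphogenetic protein pathway of 23 (median -0.01). Of 20 genes of resting fibroblasts, 1 fell (Kcnk2), where 0.150% of all genes did, the median was -0.24 and 11 did not overlap in the lower direction, against 22.0% of all genes. Over all 29 lists, 22 had no call in this comparison, and among these were glycolysis, fatty acid use and branched-chain amino acid breakdown.

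The families of the 5 rule genes were followed within members, where the rule itself requires UMIs of those genes. Kcnip3 was at 71.6 and 131, 117 and 147, and 81.3 and 82.8 CPM, and the channel genes Kcnd3 and Kcnd2 were at 20.9 CPM or lower in all libraries. Tenm3, another teneurin, was at 1044 to 1324 CPM and Adgrl3, a latrophilin receptor that binds teneurins, at 454 to 807 CPM, with R403Q-EMPA replicate 1 lowest for both. Bmp1, the first tolloid protease, was at 80.2 to 123 CPM and Pcolce, which enhances it, at 121 to 202 CPM. Within members Tll2 itself was at 545 and 577, 428 and 293, and 288 and 280 CPM,. Kcnip1 was at 644 and 671, 625 and 678, and 356 and 652 CPM, Tenm4 at 102 to 181 CPM, Necab1 at 120 to 187 CPM and Col26a1 at 122 to 144 CPM. These levels are given with no test.

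Treated mutant hearts were last compared with wild type. In R403Q-EMPA against WT-CD, 35 genes rose (0.292%) and 29 fell (0.242%), and 18.1% and 19.8% of genes did not overlap in the higher and lower direction. The comparison shares its treated libraries with the previous one. Without R403Q-EMPA replicate 1 there were 22 calls, 18 of them among the 64, and without WT-CD replicate 1 there were 365. Of the cytosolic chaperones 9 of 16 rose (median 1.64), Hsph1 by 2.68 (edgeR adjusted p = 2.03e-05), Hspa4l by 2.59 (adjusted p = 1.31e-04) and Bag3, a co-chaperone, by 0.87. Of the ER list 3 of 19 rose (median 1.10), Hsp90b1 by 1.32, Calr by 1.25 and Hyou1 by 1.66. Of 14 alternative settings, Bag3 lost its call in 10 and Hyou1 in 9, with a lowest value of 0.66 for Bag3 after thinning and of 1.05 for Hyou1 with a sum of at least 3. Fkbp4, an immunophilin of HSP90 complexes, rose by 2.03 (edgeR adjusted p = 0.00482), from 19.1 and 10.7 to 61.8 and 68.0 CPM.

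Nppa, which encodes atrial natriuretic peptide, was at 9.21 and 8.23 CPM in WT-CD, 51.5 and 32.1 CPM in R403Q-CD, and 259 and 46.7 CPM in R403Q-EMPA, and rose by 4.02 against WT-CD (SE 0.509, edgeR adjusted p = 0.00119). R403Q-EMPA replicate 1 was far above the rest, and without it the log2 fold change was 2.30 and still called. The other gated nuclei held nearly the same amounts in each library (12.0 and 8.59, 45.3 and 34.6, and 278 and 53.7 CPM), and nuclei outside the gate, which include the cardiomyocytes, held 19.0 to 907 CPM. The part of free RNA from cardiomyocytes in this value was not tested.

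Igf1 rose by 1.06 (SE 0.202, edgeR adjusted p = 0.0310) against WT-CD and asporin (Aspn), a small proteoglycan, by 0.82 (adjusted p = 0.0325), the latter from 232 and 210 to 420 and 361 CPM. The call of Aspn was lost in 7 of 14 settings and that of Ddit4, named next, in 5. Mt1, a metallothionein, rose by 1.76 (1.17 and no call without R403Q-EMPA replicate 1) and Ddit4, an inhibitor of mTOR complex 1, by 1.40 (edgeR adjusted p = 0.0325), from 19.4 and 16.1 to 52.0 and 44.6 CPM. Enpp6 rose by 2.35 and Gm10069 by 1.94, and Enpp6 lost its call in 5 of 14 settings, with 1.37 after thinning. Acta2, smooth muscle actin, had a log2 fold change of 2.75, with 25 of the 30 UMIs of R403Q-EMPA replicate 1 in 1 nucleus. Sorbs2 had 2.45, with 39 of 81 UMIs there in 1 nucleus and 132 CPM against 21.2 CPM in replicate 2. Without that library Acta2 had 1.52, Sorbs2 0.59 and Myh11 1.80 against WT-CD, none of them called.

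Among the genes that fell against WT-CD, Grm8 fell by 4.34 (SE 0.404, edgeR adjusted p = 1.11e-04) and Hpse2, a heparanase-like protein, fell by 3.72, from 107 and 178 UMIs to 0 and 3 UMIs (-2.79 and no call in the fit lacking R403Q-EMPA replicate 1). Ccbe1 fell by 1.73, Kcnk2 by 1.18 (edgeR adjusted p = 0.00387) and Pdgfd, a platelet-derived growth factor, by 1.09. Pdgfd lost its call in 8 of 14 alternative settings, with -1.98 after thinning. Gna14 fell by 2.05 (edgeR adjusted p = 0.00387), from 155 and 183 CPM to 29.3 and 53.1 CPM, with 137 and 83.8 CPM in R403Q-CD. Pleiotrophin (Ptn) fell by 1.57, the kinase gene Hunk by 1.62, Timp3, an inhibitor of metalloproteases, by 1.06, Hdac9 by 2.24 and Serpini1 by 2.20. Hdac9 had -1.11 with predicted doublets removed and Serpini1 -1.19 after thinning, both without a call. In the circadian list Dbp fell by 1.77 and Nr1d1, a repressor of the clock, by 1.46. The 29 include Vit and Tll2, whose UMIs the rule itself uses, so their calls are no result. Most of these genes, Kcnk2 among the exceptions, also had a lower mean in R403Q-CD than in WT-CD, by amounts that were not called. Without R403Q-EMPA replicate 1 the calls of Gna14 (-1.65), Kcnk2 (-1.11) and Hunk (-1.04) were lost.

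Whether a change in members differed from that in the other gated nuclei was tested directly. Of 14083 genes, 3 (0.0213%) were called for R403Q-CD against WT-CD, 26 (0.185%) for R403Q-EMPA against R403Q-CD and 36 (0.256%) for R403Q-EMPA against WT-CD. Cacnb2, a beta subunit of L-type calcium channels, was at 38.5 and 35.1 CPM in WT-CD members, 21.8 and 34.2 CPM in R403Q-CD and 86.2 and 80.7 CPM in R403Q-EMPA. In the other gated nuclei it was at 104 and 99.2, 86.3 and 111, and 91.3 and 78.1 CPM. The changes of R403Q-EMPA against R403Q-CD differed by 1.75 (SE 0.224, edgeR adjusted p = 1.02e-04). A single nucleus held 19 of the 53 UMIs of treated replicate 1 and 18 of the 38 of replicate 2. Nuclei outside the gate, which include the cardiomyocytes, held Cacnb2 at a mean of 1073 CPM. Cardiomyocyte markers summed to 2700 and 2454 CPM in treated members and 2298 and 2464 CPM in R403Q-CD members. The part of RNA from cardiomyocytes in the Cacnb2 values was not tested.

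The other genes called for R403Q-EMPA against R403Q-CD had values of either sign. Mgp, matrix Gla protein, was at 416 and 539 CPM in R403Q-CD members and 1025 and 512 CPM in treated ones, against 462 and 607 CPM and 1740 and 867 CPM in the other nuclei, a difference of the changes of -0.63 (SE 0.101, edgeR adjusted p = 0.00192). The secreted protein gene Itgbl1 had -0.53. Klhl29 had -1.13 (-0.39 without R403Q-EMPA replicate 1) and P3h2, a collagen prolyl hydroxylase, -2.0 (-0.93 without that library), the latter with 13.0 and 19.1 CPM in treated members against 99.8 and 43.1 CPM in the other treated nuclei. Lvrn, an aminopeptidase, had 0.63. For Mgp, Klhl29 and P3h2, R403Q-EMPA replicate 1, the library with many Postn nuclei, was the higher of the treated libraries in the other gated nuclei, and the part of those nuclei was not tested. The calls of Mgp (-0.62), Klhl29, P3h2, Itgbl1 (-0.49) and Lvrn (0.45) were lost without that library. Myh11 (5.05), Pparg (2.20) and the macrophage gene F13a1 (-2.27) rested on single nuclei, which held all 34, 26 of 35 and, in R403Q-CD, 63 of 146 and 59 of 103 of their UMIs. Leaving out R403Q-EMPA replicate 1 gave 3.64 for Myh11, 0.93 for Pparg and -4.05 for F13a1, none of them called, and with predicted doublets removed F13a1 had 0.99. Against WT-CD the differences were of the same sign for Cacnb2 (1.41), Mgp (-0.58), Itgbl1 (-0.70), Lvrn (0.73) and Myh11 (4.85), and Ptn (-1.71), Sorbs2 (2.35), Acta2 (2.86) and Csmd1 (0.86) were called besides, but Sorbs2 (0.69), Acta2 (2.15) and Myh11 (3.43) had no call in the fit lacking the first treated library. Without R403Q-EMPA replicate 1 the calls were 2 and 11, and Cacnb2 was among them.

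**Figure D5:**
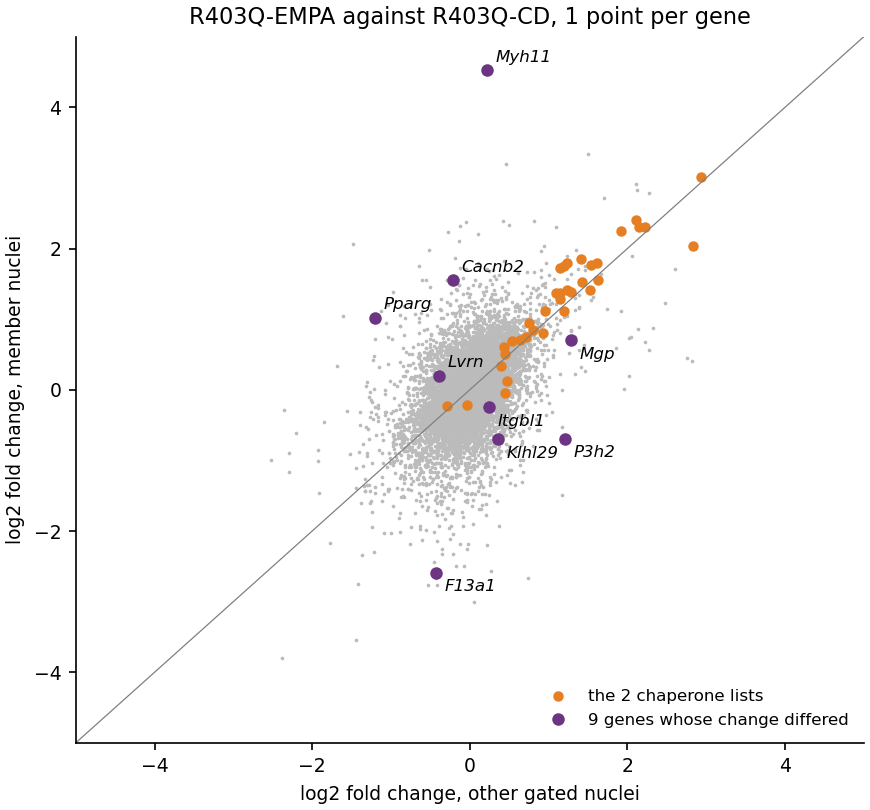
Log2 fold change of R403Q-EMPA against R403Q-CD in members (vertical) and in the other gated nuclei (horizontal), 1 point per gene for 11972 genes tested in both, with the diagonal of equal change. The genes of the 2 chaperone lists (orange) follow the diagonal, while 9 named genes whose change differed (purple) lie off it, Cacnb2 above and Mgp and P3h2 below.

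For R403Q-CD against WT-CD the 3 genes whose change differed were Csmd1 (0.86), a membrane protein with complement control domains, Ctnna3 (0.64), a catenin of cell junctions in cardiomyocytes, and the non-coding A230057D06Rik (-1.60). Csmd1 was at 123 and 207 CPM in WT-CD members and 170 and 279 CPM in R403Q-CD members, against 150 and 276 and 138 and 177 CPM in the other nuclei. A230057D06Rik was at 21.2 and 22.2 CPM and 7.42 and 9.32 CPM in members. After thinning Ctnna3 had 0.31 and A230057D06Rik -0.47, and each lost its call in 5 of 11 settings. DESeq2 called none of the 3 and had 74 genes at an unadjusted p under 0.05.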

How the data were processed

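Nuclei were isolated from frozen left ventricle for 10x Genomics libraries. Per the labels, the authors deposited raw UMI counts per gene and barcode from Cell Ranger 8.0.1 with build GRCm39 (submitters' processing notes). The annotation and the counting of intronic reads are not given in the sources used here. The tables held 33696 genes, and 26 symbols occurred more than once. Barcodes with at least 500 UMIs, at least 300 genes and at most 5% mitochondrial UMIs were kept. The members, the gene lists and the tests were chosen with earlier results of these data known. The fit over all gated nuclei, the split by Kcnip1 and Tll2 and the counts of UMIs per nucleus were added after seeing the data.

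UMI counts were summed per library over members, over the other gated nuclei and over all gated nuclei. After filterByExpr and TMM scaling, genes were tested by edgeR's quasi-likelihood test (edgeR 4.0.16, limma 3.58.1, R 4.3.3; prior count 2) over all 6 libraries, with Benjamini-Hochberg adjustment over all genes tested and calls at an adjusted p under 0.05. The difference of changes was the interaction term of 12 sums with library as block. CPM in comparisons between groups are TMM-scaled, and CPM in comparisons between kinds of nuclei are scaled to that kind's own UMI total. Shares were compared by exact permutation. DESeq2 1.42.0 and the Scrublet doublet caller in scanpy 1.11.5 gave alternatives. Depth per library was as stated in the text. The test was tested on simulated data with 200 changed genes. The named genes were the 5 rule genes, the 15 genes highest and 10 lowest in members by the least extreme library's ratio at 20 CPM or more, the 10 largest and 10 smallest log2 fold changes among called genes that did not overlap (the 10 smallest p-values where under 5 were called), up to 10 genes whose change differed, and in each of 29 lists the called members and 2 to 4 of the highest in CPM. The reported differences between kinds of nuclei carry no test. Antisense and overlapping genes were counted as the files give them. A few named genes are not reported here.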

Additional observations from a re-analysis of the deposited data

Results flagged for a closer look

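The results below were marked because the change between groups in members differed from that in the other gated fibroblast nuclei, by the interaction term in edgeR with an adjusted p under 0.05. Each value is the log2 fold change in members minus that in the other gated nuclei, and no explanation was weighed.

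In R403Q-CD against WT-CD the value was 0.86 for Csmd1, 0.64 for Ctnna3 and -1.60 for A230057D06Rik.

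In R403Q-EMPA against R403Q-CD the value was 1.75 for Cacnb2, 5.05 for Myh11, 0.63 for Lvrn and 2.20 for Pparg. It was -0.63 for Mgp, -1.13 for Klhl29, -2.27 for F13a1, -0.53 for Itgbl1 and -2.0 for P3h2.

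In R403Q-EMPA against WT-CD the value was 4.85 for Myh11, 1.41 for Cacnb2, 2.35 for Sorbs2, 0.73 for Lvrn, 2.86 for Acta2 and 0.86 for Csmd1. It was -0.70 for Itgbl1, -1.71 for Ptn and -0.58 for Mgp. The treated libraries supply both of the last comparisons, so a gene named in both is not 2 observations.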

How the results depend on the processing

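The lower share of members in R403Q-EMPA kept its direction under every alternative run. Against R403Q-CD the difference in points was -10.5 with a sum of at least 3 UMIs, -5.04 after thinning to 1000 UMIs, -4.18 as a share of all nuclei, -8.77, -11.3, -11.2, -8.58 and -10.6 with Kcnip1, Necab1, Tenm4, Tll2 or Col26a1 left out of the rule, and -17.2 with a sum of at least 2 UMIs alone. Against WT-CD it was -13.2, -7.83, -6.74, -12.6, -14.2, -14.1, -9.23, -14.0 and -20.0 in the same order, and -14.3 with no mitochondrial filter. For R403Q-CD against WT-CD it was -0.641 with Tll2 left out. The rules without 1 gene and with the sum alone, and the alternatives to the fit over all gated nuclei, were chosen after seeing the data. Leaving out 1 library at a time gave -3.76 to -2.21 for R403Q-CD against WT-CD, -12.8 to -11.3 for R403Q-EMPA against R403Q-CD and -15.8 to -14.3 against WT-CD.

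Calls in members for R403Q-CD against WT-CD were 34 with no filter on low counts, 2 with the 4 libraries of those groups alone, 2 after thinning, and 0 to 186 when 1 library was left out. For R403Q-EMPA against R403Q-CD they were 228 with no filter, 202 with 4 libraries, 26 with a sum of at least 3, and 8 to 282 when 1 library was left out, and the share of higher genes among the calls was 64.7% as reported, 53.0% with 4 libraries and 51.4% after thinning. For R403Q-EMPA against WT-CD they were 259 with no filter, 25 with 4 libraries, 35 with a sum of at least 3, 43 after thinning, and 22 to 365 when 1 library was left out. Genes whose change differed between members and the other nuclei numbered 0 with DESeq2, 20 with no filter, 1 with doublets removed, 11 after thinning and 6 to 17 when 1 library was left out for R403Q-CD against WT-CD. They numbered 1, 80, 27, 16 and 2 to 84 for R403Q-EMPA against R403Q-CD, and 6, 70, 36, 24 and 11 to 94 for R403Q-EMPA against WT-CD. F13a1 reversed to 0.99 with doublets removed and Pparg to -1.56 after thinning. The cause of these shifts was not tested. Of 656 values of named genes within members under the other alternatives, 532 kept direction and side of the threshold and 113 lost the call, and of 496 with 1 library left out 148 lost it. Of 115 differences of changes under the other alternatives, 37 lost the call and 2 reversed, and of 138 with 1 library left out 20 lost it. Over all gated nuclei Fap and Hsd11b1 were called with DESeq2 in both comparisons of R403Q-EMPA.

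No paired analysis was possible because the labels give no replicate numbers shared between groups. For shares, 2 libraries against 2 cannot give an exact p below 0.333.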

Other observations

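The mitochondrially encoded genes of members lay in the opposite order for treatment, with 11 of 13 not overlapping in the higher direction in R403Q-EMPA against R403Q-CD (21.1% of all genes; median log2 difference 0.49), none called, and a median of 0.02 against WT-CD. The members' median share of mitochondrial UMIs was 2.06% and 2.96% in R403Q-EMPA. Of 21 growth factor receptors none was called, with medians of -0.19 against R403Q-CD and -0.23 against WT-CD, and 10 and 11 did not overlap in the lower direction, against 22.0% and 19.8% of all genes. Of 10 network and other collagens none was called (median 0.31 against R403Q-CD), and of 15 Wnt and Hedgehog genes none was called (median -0.07).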
